A study of Homo sapiens with 4 samples.

Results

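The keratin and cornified envelope genes are the structural genes of epithelial cells: the keratin filaments, the protein shell of the cornified cell and the desmosomes to which the filaments attach. They were chosen by name from the deposited gene table, as the protein-coding rows whose symbol begins with KRT and a digit or with SPRR, together with SCEL, IVL, EVPL, PPL, TGM1, TGM2, DSP, DSG2, DSC2, PKP1, PKP2 and PKP3. This rule took 78 of the 20372 rows, under 77 symbols because KRT222 is listed under 2 identifiers. The members were 30 type I keratins, 26 type II keratins, 10 SPRR genes, 4 envelope precursors and plakins, 2 transglutaminases, 4 desmosomal plaque genes and 2 desmosomal cadherins.

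BLU6864 inhibits the RET kinase, which TPC1, a line from a human thyroid cancer, holds as the fusion CCDC6-RET. RNA sequencing compared TPC1 cells treated with BLU6864 for 24 h with TPC1 cells treated with BLU6864 for 6 h, 2 libraries at each time. The labels give the dose as 100 µM, whereas the study's text gives BLU6864 treatments of TPC1 cells in nM. The 24 h libraries alone are labelled as a re-analysis, and whether they were sequenced together with the 6 h libraries is not given in the sources used here, so a difference in handling and the difference in time cannot be told apart. Vehicle, BGJ398 and combination treatments were not analysed here, so each difference is between times under the inhibitor and not between treated and untreated cells. The 24 h libraries held 26486456 and 27457040 counts and the 6 h libraries 23917056 and 26829072 counts. No source used here says that the libraries came from separate cultures, so P values measure only the spread between these libraries, which may be technical.

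Keratins form filaments from pairs of a type I and a type II chain, and epithelia are told apart by the pairs they make, with KRT8 and KRT18 as the usual pair of simple epithelia such as the thyroid follicle. In stratified epithelia, differentiating cells replace the basal pair and build a cornified envelope, in which transglutaminases cross-link precursors such as involucrin, sciellin and the SPRR proteins. Desmosomes join the filaments of neighbouring cells: cadherins span the gap, plakophilins and plakoglobin bind their tails, and desmoplakin ties them to keratin.

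Most of these genes were at or near 0 in TPC1 cells at either time. Of the 78 members, 42 had 0 counts in all 4 libraries, 12 reached at most 3 counts in any library and 24 exceeded 3 counts. A count of 0 allows a level of up to 3 counts, or 0.113 and 0.109 CPM in the 24 h libraries and 0.125 and 0.112 CPM in the 6 h libraries, and this limit covers counting error only. A call of higher or lower at 24 h needed an unadjusted P under 0.01 and a change of more than 0.5 on the log2 scale, the cutoffs that the study states for lower genes, applied here in both directions. The filter on low counts passed 18 members, of which 5 were higher and 5 lower at 24 h. Over the 12876 genes tested, 17.4% were higher and 17.7% lower, so that 35.1% were called in either direction. The median log2 fold change was -0.11 over the members tested and 0.0029 over all genes tested. The members' median was -0.28 without 24 h replicate 2, -0.22 without 6 h replicate 2, 0.0027 without 6 h replicate 1 and 0.088 with no filter on low counts, so its sign was not stable. Members that passed the filter were those with enough counts in either group, and the counts are a description of them. Libraries of the 2 times did not overlap for 14 of the 18 members tested and for 81.8% of all genes tested.

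**Figure D1:**
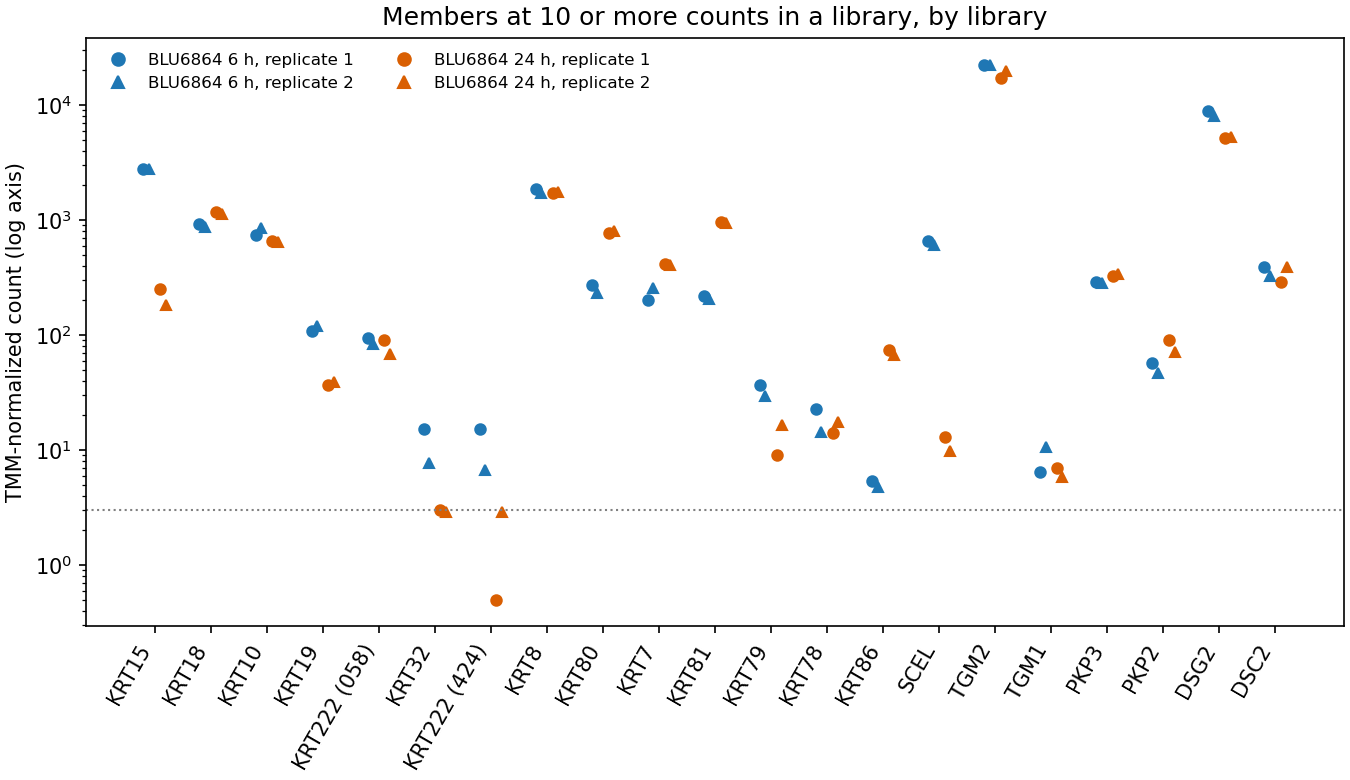
TMM-normalized counts of the members that reached 10 or more counts in any library, on a log axis, for each 6 h library (blue) and 24 h library (orange), with a dotted line at 3 counts and a value of 0 drawn at 0.5; the last 3 digits of the identifier tell the KRT222 rows apart. SCEL and KRT15 lie far lower at 24 h, whereas KRT81, KRT86 and KRT80 lie higher.

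Among the type I keratins, KRT15, a keratin of basal cells in stratified epithelia, fell most. KRT15 (ENSG00000171346, chromosome 17, 39669995 to 39678781 in hg19) had 2570 and 2887 counts at 6 h and 250 and 188 counts at 24 h. Both 24 h libraries lay far below both 6 h libraries. KRT15 fell 12.8-fold (log2 fold change -3.68 ± 0.10 SE; adjusted P = 8.97e-22, edgeR quasi-likelihood test with Benjamini-Hochberg adjustment). In these bulk libraries, fewer cells that express a gene and less RNA per cell cannot be told apart. KRT19, a small keratin of simple epithelia that lacks most of the usual tail, had 100 and 125 counts at 6 h and 37 and 40 counts at 24 h. The libraries of the times did not overlap, and KRT19 fell 3.01-fold (log2 fold change -1.59 ± 0.20 SE; adjusted P = 9.57e-08, edgeR quasi-likelihood test with Benjamini-Hochberg adjustment).

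The other abundant type I keratins changed too little to be called. KRT18, the type I partner of simple epithelia, had 856 and 900 counts at 6 h and 1185 and 1155 counts at 24 h. The 24 h libraries were above the 6 h libraries, but the log2 fold change of 0.37 ± 0.08 (SE) was under the cutoff on size. KRT10, the type I keratin of differentiating epidermis, had 690 and 892 counts at 6 h and 658 and 666 counts at 24 h. Its normalized counts were lower in both 24 h libraries, with a log2 fold change of -0.30 ± 0.09 (SE), again under the cutoff on size. The KRT222 row that overlaps the neighbouring gene SMARCE1 (ENSG00000264058) had 87 and 88 counts at 6 h and 91 and 71 counts at 24 h, and the times overlapped. Some KRT18 reads may belong elsewhere, because 28.9% of the 50-base stretches of its transcript also occur in transcripts of 43 other genes, among them the pseudogene KRT18P11. KRT10 overlaps TMEM99 in hg19, so reads in that overlap cannot be assigned to either gene with certainty.

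Of the 7 type II keratins tested, 4 rose and 1 fell, beside 17.4% higher and 17.7% lower over all genes tested. KRT81, a keratin of the hair cortex, had 202 and 216 counts at 6 h and 958 and 979 counts at 24 h. Both 24 h libraries stood well above both 6 h libraries, and KRT81 rose 4.49-fold (log2 fold change 2.17 ± 0.10 SE; adjusted P = 7.63e-17, edgeR quasi-likelihood test with Benjamini-Hochberg adjustment). KRT86, a close relative that is also found in the hair cortex, had 5 and 5 counts at 6 h and 74 and 69 counts at 24 h. It rose 13.6-fold from a very low level (log2 fold change 3.76 ± 0.35 SE; adjusted P = 3.53e-10, edgeR quasi-likelihood test with Benjamini-Hochberg adjustment). These rows are not independent, since 44.6% of the 50-base stretches of KRT81 also occur in other genes, 38.4% in KRT86, and the KRT86 row spans KRT81 in hg19. How the authors' counting divided reads between them was not given in the sources used here, so the split between KRT81 and KRT86 is uncertain.

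KRT80 and KRT7 rose as well. KRT80, an epithelial keratin linked to desmosomes, had 254 and 242 counts at 6 h and 779 and 834 counts at 24 h. All of its 24 h counts exceeded its 6 h counts, and KRT80 rose 3.14-fold (log2 fold change 1.65 ± 0.10 SE; adjusted P = 5.92e-14, edgeR quasi-likelihood test with Benjamini-Hochberg adjustment). KRT7, a keratin of glandular and ductal epithelia, had 187 and 267 counts at 6 h and 420 and 415 counts at 24 h. It rose 1.79-fold, without overlap between the times (log2 fold change 0.84 ± 0.11 SE; adjusted P = 4.49e-07, edgeR quasi-likelihood test with Benjamini-Hochberg adjustment). KRT7 overlaps the KRT86 row over 2887 bases in hg19.

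KRT8, the type II partner of KRT18, had 1724 and 1807 counts at 6 h and 1720 and 1811 counts at 24 h. The libraries of the times overlapped, with a log2 fold change of -0.05 ± 0.07 (SE). KRT79, a keratin known from hair follicle and sebaceous duct cells, had 34 and 31 counts at 6 h and 9 and 17 counts at 24 h. It was lower at 24 h at these few counts (log2 fold change -1.36 ± 0.35 SE; adjusted P = 0.00136, edgeR quasi-likelihood test with Benjamini-Hochberg adjustment). The KRT79 call was lost without 24 h replicate 1 (log2 fold change -0.99), without 6 h replicate 1 (-1.21) and with DESeq2 (-1.38), and KRT79 was not tested under a filter of 10 counts per library. KRT78, the last of the 7 type II keratins tested, had 21 and 15 counts at 6 h and 14 and 18 counts at 24 h, and its times overlapped.

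**Figure D2:**
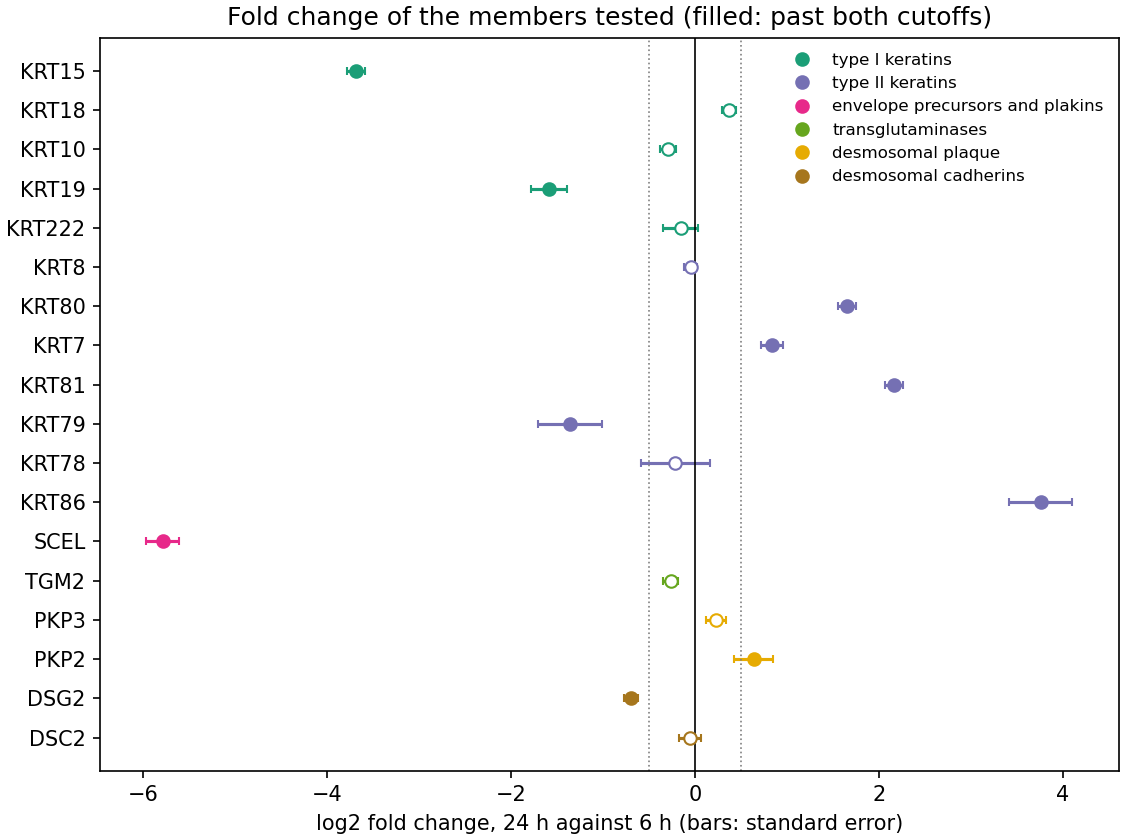
Log2 fold change of the 18 members tested, 24 h against 6 h, with standard errors, coloured by role; filled points passed both cutoffs and dotted lines mark 0.5 and -0.5. SCEL at -5.79 and KRT86 at 3.76 are the extremes, and KRT8, KRT222 and DSC2 lie near 0.

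Per transcript length, the summed counts of the keratin types, as deposited, stood in the opposite order at the 2 times. Levels are given as CPM, the counts scaled to TMM library size, per kilobase of the longest protein-coding transcript, summed over the 29 type I keratins with a known length and over the 26 type II keratins. Type I keratins summed to 65.9 and 66.7 at 6 h and to 42.0 and 40.0 at 24 h. Type II keratins summed to 42.0 and 40.4 at 6 h and to 64.9 and 65.7 at 24 h. The ratio of type II to type I was thus 0.637 and 0.606 at 6 h and 1.55 and 1.65 at 24 h. The level of all keratins together was 108 and 107 at 6 h and 107 and 106 at 24 h. As deposited and at these lengths, the sums of the types thus differed between the times while their total hardly did. No test was made of these sums. They take KRT17, a type I keratin, at the 0 that its row holds, although that row overlaps JUP, whose counts were 1803 and 2048 at 6 h and 5106 and 5983 at 24 h. Any KRT17 reads counted to JUP would raise the type I sums and the total of all keratins. The order of the types, their ratio, their steady total and the shares of single keratins thus depend on that 0. They depend likewise on the length used for each gene, which was 3758 bases for KRT15 and was not varied here. The lack of counts for KRT6A, KRT6B, KRT6C, KRT14 and KRT16, uncertain as given below, enters these sums too.

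Within that total, KRT15 made up 26.2% and 26.3% of the summed keratin level at 6 h and 2.37% and 1.76% at 24 h. KRT81 made up 4.005% and 3.834% at 6 h and 17.7% and 17.9% at 24 h, with the uncertainty of its reads noted above. KRT8 made up between 25.1% and 27.1% in every library. The ratio of KRT8 to KRT18, the usual partners, was 1.40 and 1.40 at 6 h and 1.01 and 1.09 at 24 h on this scale, with 1084 bases of overlap between their rows in hg19. Vimentin, the filament of mesenchymal cells, was at 8.24 to 9.44 times the summed keratin level per length in the 4 libraries. This multiple, like the shares, takes KRT17 at the 0 of its row and depends on the lengths used.

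**Figure D3:**
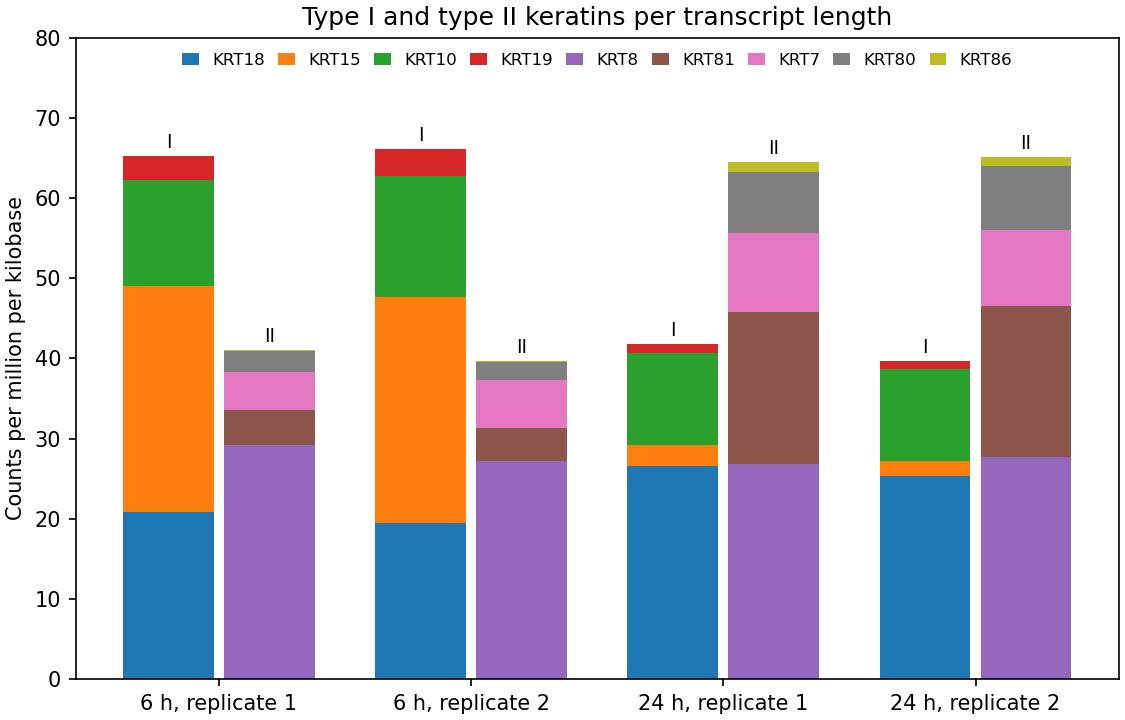
CPM per kilobase of the 9 keratins with the main share of the summed level, stacked for type I (I) and type II (II) in each library. The type I bar is the taller at 6 h, through KRT15, and the type II bar is the taller at 24 h, through KRT81, KRT7 and KRT80.

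Of the 7 keratins called, 6 lay in 2 short stretches, a pattern noticed after their values were seen and given without a test. KRT80, KRT7, KRT86 and KRT81, which rose, lie within 152 kb of chromosome 12 that ends with KRT83. Between KRT83 and KRT8 lie 20 further keratin genes over 576 kb, of which 2, KRT79 and KRT78, exceeded 3 counts in any library. KRT79, which was lower at 24 h, lies apart from the genes that rose, 652 kb from the start of KRT80. KRT15 and KRT19, which fell, are neighbours on chromosome 17, with 1.09 kb between the end of KRT15 and the start of KRT19. Outside the keratin cluster, within 400 kb on either side, 5 of 17 genes tested on chromosome 12 were higher and 1 was lower. The corresponding flanks on chromosome 17 held 16 genes tested, of which 7 were higher and 2 lower, beside 17.4% higher and 17.7% lower over all genes tested.

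**Figure D4:**
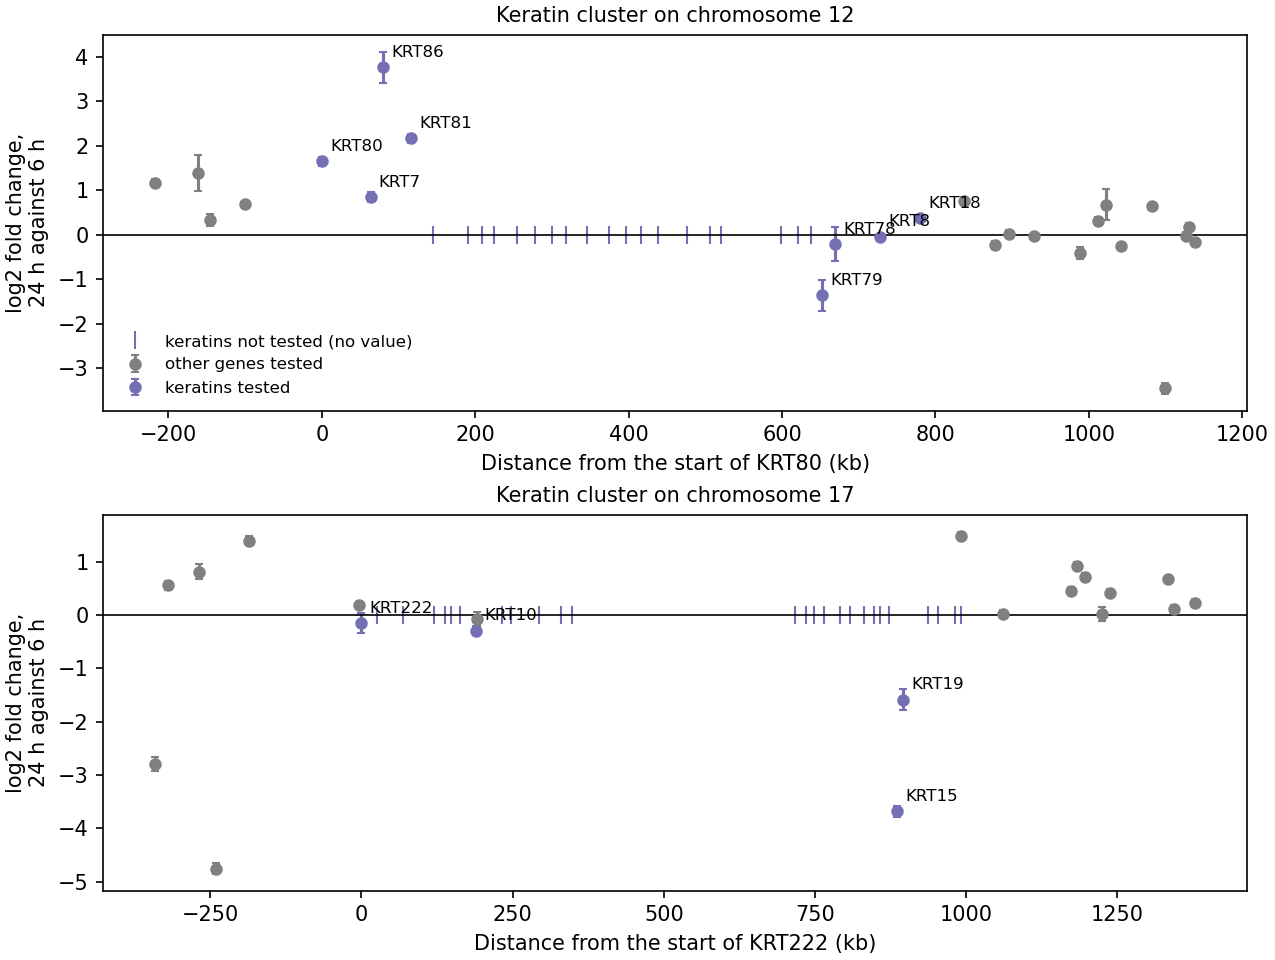
Log2 fold change, 24 h against 6 h, with standard errors, along the keratin clusters of chromosomes 12 and 17, by distance in kb from the start of KRT80 or of KRT222; purple points are keratins tested, grey points other genes tested and ticks on the zero line keratins with no value. KRT80, KRT7, KRT86 and KRT81 form a group above 0 and KRT15 and KRT19 a pair below it.

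A few type I keratins were too rare to be tested. KRT32, a hair keratin, had 14 and 8 counts at 6 h and 3 and 3 at 24 h, a ratio of 0.264 (95% exact interval 0.0877 to 0.672). KRT35, also a hair keratin, had 7 and 9 counts at 6 h and 3 and 0 at 24 h, a ratio of 0.182 (95% exact interval 0.0339 to 0.635). The second KRT222 row (ENSG00000213424) had 14 and 7 counts at 6 h and 0 and 3 at 24 h, a ratio of 0.138 (95% exact interval 0.0264 to 0.464). This row overlaps the other KRT222 row over 10477 bases in hg19, so its counts depend on how reads in the overlap were assigned. Their 24 h libraries lay below their 6 h libraries, and these intervals cover counting error only. KRT34 had 1 and 4 counts at 6 h and 3 and 3 at 24 h, and the times overlapped. Keratins at 1 to 3 counts were KRT2, KRT4, KRT9, KRT12, KRT13, KRT23, KRT36, KRT38, KRT77 and KRT83. The 30 keratins at 0 throughout included the basal pair KRT5 and KRT14, the epidermal KRT1, the wound-associated KRT6A, KRT6B, KRT6C, KRT16 and KRT17, and KRT20 of gut and bladder epithelium. The KRT17 row overlaps that of JUP over 5403 bases in hg19, and how reads in the overlap were counted is not given in the sources used here, so its 0 is uncertain. KRT6A, KRT6B, KRT6C, KRT14, KRT16 and KRT17 have near-identical copies, and shared stretches were examined only for members above 3 counts. How reads that fit several copies were counted is not given either, so the lack of counts for these genes is uncertain. The others at 0 were KRT3, KRT24, KRT25, KRT26, KRT27, KRT28, KRT31, KRT33A, KRT33B, KRT37, KRT39, KRT40, KRT71, KRT72, KRT73, KRT74, KRT75, KRT76, KRT82, KRT84 and KRT85.

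The envelope genes were represented by sciellin alone among those tested. SCEL (ENSG00000136155, chromosome 13, 78109809 to 78219398 in hg19), a precursor that transglutaminases cross-link into the envelope, had 610 and 636 counts at 6 h and 13 and 10 counts at 24 h. It was readily counted in both 6 h libraries and close to the floor in both 24 h libraries. SCEL fell 55.4-fold (log2 fold change -5.79 ± 0.18 SE; adjusted P = 2.51e-20, edgeR quasi-likelihood test with Benjamini-Hochberg adjustment), and 8 of the 12876 genes tested had a more negative fold change. None of the 50-base stretches of its transcript occurred in another gene.

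Other envelope precursors were near or at 0. IVL, which encodes involucrin, and the 10 SPRR genes, SPRR1A, SPRR1B, SPRR2A, SPRR2B, SPRR2D, SPRR2E, SPRR2F, SPRR2G, SPRR3 and SPRR4, had no count in any library. The SPRR2B row overlaps SPRR2E over 13050 bases and SPRR2F over 1402 bases in hg19. How reads in these overlaps were counted is not given in the sources used here, so the lack of counts for SPRR2B, SPRR2E and SPRR2F is uncertain. EVPL, the plakin envoplakin, had 1 and 0 counts at 6 h and 3 and 7 at 24 h, a ratio of 9.69 whose 95% exact interval ran from 1.38 to 421. PPL, its partner periplakin, had 3 and 2 counts at 6 h and 1 and 2 at 24 h. In hg19 the EVPL row overlaps CDK3 over 1498 bases and the PPL row overlaps SEC14L5 over 2425 bases. These few counts thus depend on how reads in the overlaps were assigned. In the counts as deposited, SCEL was thus the sole envelope precursor of the list above 10 counts in any library.

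The promoter of SCEL is shown beside that of IVL because both encode envelope precursors, of which SCEL was counted and fell while IVL was not detected. RefSeq promoter windows, 250 bases before to 50 bases after the start in GRCh38.p14, were matched by symbol for 48 of the 77 member symbols. Windows were searched on both strands for AP-1 (TGANTCA), TEAD (GGAATG), SP/KLF (GGGCGG), the TATA box (TATAAA), ETS (CCGGAAG) and GRHL (AACCNGTT). The SCEL window (chr13:77535456-77535755, plus strand) and the IVL window (chr1:152908296-152908595, plus strand) each held 1 AP-1 match, in capitals, beginning 49 and 123 bases before the start.
SCEL: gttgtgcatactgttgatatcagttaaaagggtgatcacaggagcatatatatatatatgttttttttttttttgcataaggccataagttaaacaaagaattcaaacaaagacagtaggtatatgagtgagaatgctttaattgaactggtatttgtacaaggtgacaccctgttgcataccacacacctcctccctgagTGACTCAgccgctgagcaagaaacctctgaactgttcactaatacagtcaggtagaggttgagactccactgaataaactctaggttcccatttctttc
IVL: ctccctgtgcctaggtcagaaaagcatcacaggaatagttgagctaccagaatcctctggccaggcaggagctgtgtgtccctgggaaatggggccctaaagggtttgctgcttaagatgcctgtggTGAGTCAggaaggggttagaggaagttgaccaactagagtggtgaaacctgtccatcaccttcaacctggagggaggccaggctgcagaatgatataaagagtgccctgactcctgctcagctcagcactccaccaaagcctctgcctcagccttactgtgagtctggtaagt

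The AP-1 letters occurred in 7.71% of the 35116 promoter windows of the table and in windows of 8 of the 48 matched members: SCEL, IVL, SPRR1A, SPRR1B, SPRR2A, SPRR2F, SPRR2G and SPRR3. TATA box letters occurred in windows of 29 matched members and in 11.5% of all windows. SP/KLF letters occurred in windows of 10 matched members and in 45.0% of all windows, TEAD letters in 10 members and 14.0%, ETS letters in 1 member and 10.3%, and GRHL letters in 2 members and 1.73%. Members were counted by gene, with some holding several windows, whereas the shares are per window. These figures are thus not on the same scale. A match is a description of the letters and not a binding site. Promoter windows were missing for EVPL, KRT1, KRT6A, KRT6B, KRT6C, KRT7, KRT13, KRT14, KRT15, KRT16, KRT17, KRT18, KRT19, KRT23, KRT72, KRT77, KRT78, KRT80, KRT81, KRT83, KRT86, KRT222, PKP2, PKP3, PPL, SPRR2D, SPRR2E, TGM1 and TGM2.

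Of the transglutaminases, which cross-link envelope proteins, TGM2 was the most abundant member per length. TGM2, the tissue enzyme that is not specific to epidermis, had 20882 and 23056 counts at 6 h and 17232 and 20534 counts at 24 h. Its normalized counts were lower in both 24 h libraries, with a log2 fold change of -0.27 ± 0.08 (SE), under the cutoff on size. Per length, TGM2 stood at 172 CPM per kilobase at 6 h and 143 at 24 h, against 28.2 and 27.3 for KRT8. TGM1, the keratinocyte enzyme, had 6 and 11 counts at 6 h and 7 and 6 at 24 h, a ratio of 0.741 (95% exact interval 0.331 to 1.62).

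The desmosomal cadherin DSG2, found in simple and stratified epithelia alike, was the next most abundant member per length and fell. DSG2 (ENSG00000046604, chromosome 18, 29078006 to 29128971 in hg19) had 8175 and 8310 counts at 6 h and 5170 and 5383 counts at 24 h. The times did not overlap, and DSG2 fell 1.62-fold (log2 fold change -0.69 ± 0.07 SE; adjusted P = 6.74e-09, edgeR quasi-likelihood test with Benjamini-Hochberg adjustment). DSC2, the companion desmocollin, had 359 and 339 counts at 6 h and 293 and 402 counts at 24 h, and the times overlapped (log2 fold change -0.06 ± 0.12 SE). The DSG2 promoter window (chr18:31497927-31498226, plus strand, GRCh38.p14) is shown as that of the abundant member that fell, with its 2 SP/KLF matches in capitals.
DSG2: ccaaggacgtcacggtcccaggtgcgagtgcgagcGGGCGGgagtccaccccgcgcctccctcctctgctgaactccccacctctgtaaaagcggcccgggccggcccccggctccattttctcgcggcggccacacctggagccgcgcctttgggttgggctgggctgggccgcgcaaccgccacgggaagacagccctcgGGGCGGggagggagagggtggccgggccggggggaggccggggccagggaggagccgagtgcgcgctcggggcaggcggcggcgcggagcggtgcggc

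The plaque genes were uneven. PKP3, the plakophilin of most epithelia, had 267 and 294 counts at 6 h and 328 and 351 counts at 24 h. Its 24 h libraries were higher, but the log2 fold change of 0.23 ± 0.11 (SE) was under the cutoffs. PKP2, the plakophilin of simple epithelia and heart, had 53 and 49 counts at 6 h and 91 and 73 counts at 24 h. PKP2 was higher at 24 h (log2 fold change 0.64 ± 0.21 SE; adjusted P = 0.00917, edgeR quasi-likelihood test with Benjamini-Hochberg adjustment), and this call was lost without 24 h replicate 1 (log2 fold change 0.46), without 6 h replicate 2 (0.49) and with DESeq2 (0.63). PKP1, the plakophilin of upper epidermal layers, had 0 counts in every library. DSP, which encodes desmoplakin, had 1 count in 24 h replicate 2 and 0 in the other libraries. Desmoplakin RNA, the link from desmosome to keratin, was thus at or under the floor in libraries with at least 5170 DSG2 counts.

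Other genes of these structures, taken from fixed lists, moved in either direction. Of 39 other cornified envelope and late differentiation genes, 31 had at most 3 counts in every library, 7 were tested, 2 were higher and 3 lower, beside 17.4% higher and 17.7% lower over all genes tested. FLG, the filaggrin gene, had 275 and 411 counts at 6 h and 1530 and 1785 at 24 h, and rose 4.70-fold (log2 fold change 2.23 ± 0.10 SE). PI3, the envelope-bound protease inhibitor elafin, had 132 and 155 counts at 6 h and 15 and 12 at 24 h, and fell 10.9-fold (log2 fold change -3.44 ± 0.24 SE). ANXA1, which encodes annexin A1, had 27247 and 30727 counts at 6 h and 12922 and 12308 at 24 h, and fell 2.37-fold (log2 fold change -1.24 ± 0.08 SE). For these 3 genes the times did not overlap. TCHH and SBSN of this list were called but lay under the count level for naming, and are given after their values were seen. TCHH had 6 and 6 counts at 6 h and 92 and 103 at 24 h (log2 fold change 3.95 ± 0.31 SE). SBSN had 36 and 29 counts at 6 h and 6 and 12 at 24 h (log2 fold change -1.89 ± 0.38 SE).

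Of 8 other desmosome genes, 3 were tested, with 1 higher and 1 lower (17.4% and 17.7% over all genes tested). JUP, which encodes plakoglobin, had 1803 and 2048 counts at 6 h and 5106 and 5983 at 24 h and rose 2.79-fold (log2 fold change 1.48 ± 0.08 SE). PKP4, a relative of the plakophilins, had 1706 and 1802 counts at 6 h and 1033 and 1006 at 24 h and fell 1.78-fold (log2 fold change -0.83 ± 0.07 SE). The counts of JUP may include reads of KRT17, whose row it overlaps.

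Of 9 hemidesmosome and keratin linker genes, 8 were tested, with 3 higher and 3 lower (17.4% and 17.7% over all genes tested). COL17A1, the collagen of hemidesmosomes, had 1337 and 1473 counts at 6 h and 164 and 201 at 24 h and fell 7.95-fold (log2 fold change -2.99 ± 0.10 SE). FAM83H, known to act on keratin filaments, had 157 and 209 counts at 6 h and 385 and 504 at 24 h and rose 2.36-fold (log2 fold change 1.24 ± 0.13 SE). ITGA6, the alpha chain of the hemidesmosomal integrin, had 3502 and 3622 counts at 6 h and 1520 and 1798 at 24 h and fell 2.22-fold (log2 fold change -1.15 ± 0.08 SE). ITGB4, the beta chain of the same integrin, was named after its values were seen: it had 2 and 3 counts at 6 h and 19 and 23 at 24 h and was called higher. In each of these genes the 24 h libraries were on a single side of the 6 h libraries.

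Of 12 other intermediate filament genes, 7 were tested, with 0 higher and 3 lower, beside 17.4% higher and 17.7% lower over all genes tested. DES, which encodes desmin, had 142 and 166 counts at 6 h and 22 and 27 at 24 h (log2 fold change -2.69 ± 0.20 SE). The nuclear lamin gene LMNB1 had 979 and 1049 counts at 6 h and 244 and 289 at 24 h (log2 fold change -1.97 ± 0.10 SE), and LMNB2 fell 1.87-fold (log2 fold change -0.90 ± 0.08 SE). Of 19 epidermal and epithelial transcription factors, 12 were tested, with 2 higher and 3 lower, beside 17.4% higher and 17.7% lower over all genes tested. KLF4, a factor of epidermal barrier formation, had 518 and 566 counts at 6 h and 152 and 160 at 24 h and fell 3.58-fold. TFAP2A and TFAP2C, factors of ectoderm, rose 2.54-fold and 1.62-fold. TP63, the master factor of stratified epithelia, had at most 3 counts in every library.

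Marker genes were read to check the label of the cells. PAX8, a thyroid follicular marker, had 19124 and 22978 counts at 6 h and 20035 and 21660 at 24 h, while NKX2-1 and TSHR had 0 counts. TG, which encodes thyroglobulin, had 186 and 245 counts at 6 h and 98 and 111 at 24 h and fell 2.12-fold, whereas the thyroid transcription factor FOXE1 had 273 and 279 counts at 6 h and 462 and 556 at 24 h and rose 1.78-fold. The summed normalized counts of the general epithelial markers were 2914 and 2726 at 6 h and 2933 and 2929 at 24 h, largely from KRT8 and KRT18. KRT8, KRT18 and KRT19 are members themselves, so they give no separate check, and KRT19 fell 3.01-fold. EPCAM and CDH1, the epithelial adhesion genes, had at most 11 and 8 counts. Of 7 basal or squamous keratinocyte markers, KRT10 alone was tested, and KRT5, KRT14 and KRT1 were at 0. These keratins are members too, and the 0 of KRT14 is uncertain, as given above. The summed normalized counts of 4 simple squamous or mesothelial markers, nearly all from CALB2, were 1341 and 1277 at 6 h and 1723 and 1661 at 24 h. CALB2 was not called (log2 fold change 0.36 ± 0.07 SE), and MSLN, called higher, had at most 39 counts. UPK3B had at most 5 counts and WT1 at most 1. Fibroblast markers, led by PDGFRB, summed to 613 and 629 normalized counts at 6 h and 256 and 294 at 24 h, with COL1A2, COL3A1 and DCN at most at 3 counts. PDGFRB and COL1A1 of this list fell, whereas LUM rose from 39 and 40 counts to 71 and 66 (log2 fold change 0.75 ± 0.22 SE). CD68, a macrophage marker, had 4452 and 4784 counts at 6 h and 2592 and 2728 at 24 h, whereas CD14, of monocytes, rose from 47 and 41 counts to 85 and 91 (log2 fold change 0.95 ± 0.21 SE). The white blood cell markers CD3E, LYZ and TYROBP had at most 3 counts, and PTPRC at most 5. Endothelial markers, led by KDR, summed to 542 and 507 at 6 h and 47.8 and 26.3 at 24 h, with CDH5 at most at 3 counts. Markers of the fibroblast and white blood cell lists thus moved in both directions, and the part of any marker list in the changes of the keratin and envelope genes was not tested.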

How the data were processed

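RNA was sequenced from TPC1 cells after 6 h and 24 h of BLU6864, 2 libraries at each time. The authors deposited raw counts per gene; their processing notes name STAR 2.3, DESeq2 and hg19, and the counting program is not given in the sources used here. The deposited normalized columns hold a signal, the count divided by a size factor, and were used only to check the counts. Labels and the study's methods differ on read layout and STAR version. The authors' fold change and P columns were not used.

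Counts of all genes were fitted with edgeR 4.0.16 in R 4.3.3 (TMM scaling, filterByExpr, quasi-likelihood test, time as the single factor), with Benjamini-Hochberg adjustment over the 12876 genes tested, and the code was tested on simulated data. For normalized counts, each library was rescaled by TMM to the average depth of the 4 libraries. Lengths and shared 50-base stretches came from GENCODE v44 and promoters from RefSeq; exact intervals are Clopper-Pearson, from scipy 1.17.1. Members were named if called or at a mean normalized count of at least 100 at either time; of each other list, the 3 largest called changes at that level were named. Replicates differed beyond sampling noise (chi-square per degree of freedom 7.65 at 24 h and 10.0 at 6 h) and were kept separate. Alternatives were DESeq2 1.42.0, other scalings, filters and call rules, a replicate block and leaving out each library. Members and lists were chosen with earlier results of these data known.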

Additional observations from a re-analysis of the deposited data

How the results depend on the processing

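SCEL, KRT15, KRT19, DSG2, KRT81, KRT80 and KRT7 kept their direction and their call in every alternative run; KRT86 did too, except that it was not tested with at least 10 counts in every library. KRT79 was not tested there either, and KRT79 and PKP2 were lost with DESeq2, which left 0 desmosome members higher. Leaving out each library in turn gave 2 to 5 keratins lower and 0 to 1 desmosome members higher; a KRT222 row was also lower without BLU24H replicate 2, without BLU6H replicate 2 and with no filter on low counts, and KRT32 without BLU6H replicate 2. The median log2 fold change of the members tested ran from -0.28 to 0.0027 over these runs and was 0.088 with no filter on low counts, where 36 members were tested, so its sign changed with the filter and the libraries. That of all genes tested was -0.00039 with DESeq2, -0.040 with library size alone, 0.033 with upper quartile scaling and -0.021 with no filter. Calling at an adjusted P under 0.05 in place of both cutoffs gave 4247 genes higher and 4196 lower, and 2 envelope precursors and transglutaminases lower, since TGM2 then needs no minimum size of change. A lone library left at a time is assumed to vary like the pair at the other time. Same-numbered libraries deviated together only weakly (correlation 0.158, 2 pairs), so the numbers were not taken as pairing; with a replicate block, 2283 genes were higher and 2313 lower, and the same 5 members were higher and 5 lower. Genes under about 10 counts, such as EVPL and TGM1, are limited by depth.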
